A study of Nannochloropsis oceanica with 44 samples.

Results

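The first 6 h after nitrogen was given back to deprived cells of Nannochloropsis oceanica were examined, as the difference between the group at 6 h of resupply (6 h NR) and the group at 72 h of deprivation (72 h N-). Both groups are the wild type strain CCMP1779, a marine unicellular alga, in liquid culture under continuous light. Cells of the 72 h N- group had spent 72 h in medium without nitrogen. Cells of the 6 h NR group had the same 72 h without nitrogen and then 6 h in medium with nitrogen, so deprivation is shared by both groups and resupply also meant harvesting and resuspending the cells. All 2489 genes of the deposited tables were used, and the 2 groups hold 8 of the 44 RNA-seq libraries of the series. The groups at 6, 12, 24 and 48 h N- and at 12, 24, 48 and 72 h NR, of the same strain and culture, serve below as the earlier trend and the later course.

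Each gene has 1 value per group on a log2 scale, which stands for the 4 libraries of that group, so a difference of 1 is 2-fold. No value has an error, and no difference between groups could be set against the spread between cultures or given a p-value. A difference beyond 1 in either direction counts as higher or lower. The tables hold only genes that passed the authors' own test of deprivation against resupply, in 4 clusters made by the authors from these same columns. They are not a sample of the whole transcriptome, and differences between clusters are part of how the clusters were formed. Because the scaling between columns is not given in the sources used here, counts are given as deposited and again with each column centred on its median over the 2489 genes. In bulk cultures fewer transcripts per cell and fewer cells with a transcript cannot be told apart.

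Nitrogen is needed for amino acids, nucleotides and chlorophyll. When it runs out, algae such as Nannochloropsis stop dividing, take down part of their photosynthetic apparatus and store carbon as oil. On resupply, cells take up and assimilate nitrogen, rebuild ribosomes and chloroplasts, use up stored oil and later divide again. The genes here have identifiers of a gene prediction pipeline and no names, so none of them could be assigned to these processes. Each identifier gives a contig and the program behind the gene model, augustus or snap. The prefix maker marks models promoted by evidence, and the others are predictions on masked sequence. No nucleotide or protein sequence of the genes was used here.

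Resupply came with large differences in both directions within 6 h. At 6 h NR, 717 genes (28.8%) were higher than at 72 h N- and 564 (22.7%) were lower, which together is 51.5% of the genes. The median difference over all genes was 0.18 with quartiles over genes of -0.80 and 1.31, and 90% of the genes lay between -2.82 and 2.81. More than 4-fold differences were found in 364 genes (14.6%) upward and 272 (10.9%) downward. More than 8-fold differences were found in 85 (3.42%) and 104 genes (4.18%), and more than 16-fold differences in 14 (0.562%) and 26 (1.04%). Higher genes outnumbered lower ones past 2-fold and 4-fold, and the balance was the other way past 8-fold and 16-fold.

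That balance depended on the scaling, and past 2-fold it also turned with 48 h N- as baseline, as given further below. The median of all genes differed by -0.33 between 72 h N- and 6 h NR. Relative to this shift, 834 genes (33.5%) were higher and 452 (18.2%) lower, and 161 (6.47%) against 63 genes (2.53%) passed 8-fold. The number past 2-fold in either direction, 1286 (51.7%), was close to the 1281 counted without centring. Near the limit of 2-fold, the called gene with the smallest increase was at 1.004 and the next gene below it at 0.997. The smallest decrease called was -1.00001 and the next gene was at -0.9991. Within 0.1 of the limit lay 69 genes on the higher side and 73 on the lower side.

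**Figure D1:**
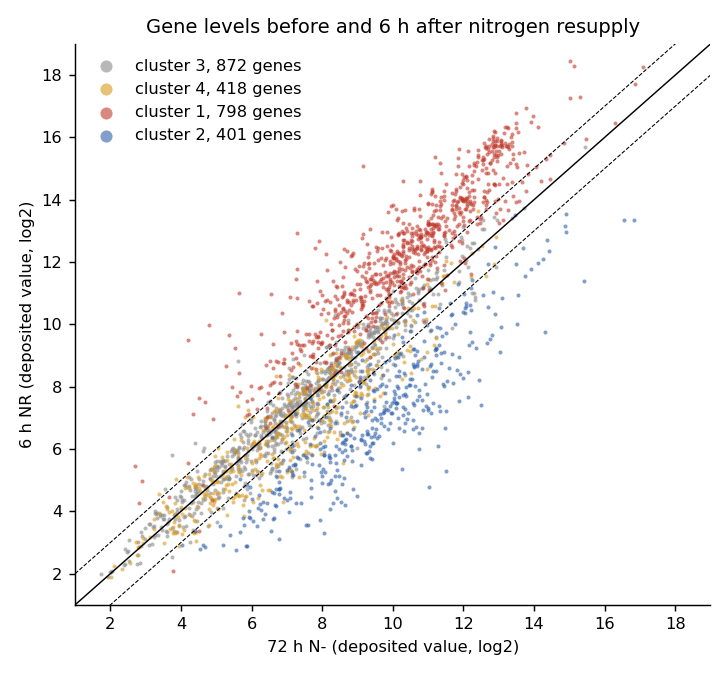
Level of each of the 2489 genes at 72 h N- (x axis) and 6 h NR (y axis), both as deposited log2 values, coloured by the authors' cluster. The solid line is equality and the dashed lines mark a difference of 1; the 717 higher genes lie above the upper dashed line and the 564 lower genes below the lower one.

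The interval was short, and more genes passed 2-fold in it than in any interval of deprivation. In the last 24 h of deprivation, from 48 h to 72 h N-, 252 genes (10.1%) passed 2-fold, and 55 (2.21%) after centring. From 24 h to 48 h N- 519 genes (20.9%) did. In the 6 h that followed, up to 12 h NR, 612 genes (24.6%) passed it. Of the 8 other intervals, only that from 12 h to 24 h NR held more, 1495 genes (60.1%), and it spans 12 h. These intervals share columns with their neighbours, so their counts are side by side and not independent. The genes also passed the authors' test of deprivation against resupply, which favours an interval that crosses from deprivation to resupply. How far this choice of genes made up the surplus was not tested.

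**Figure D2:**
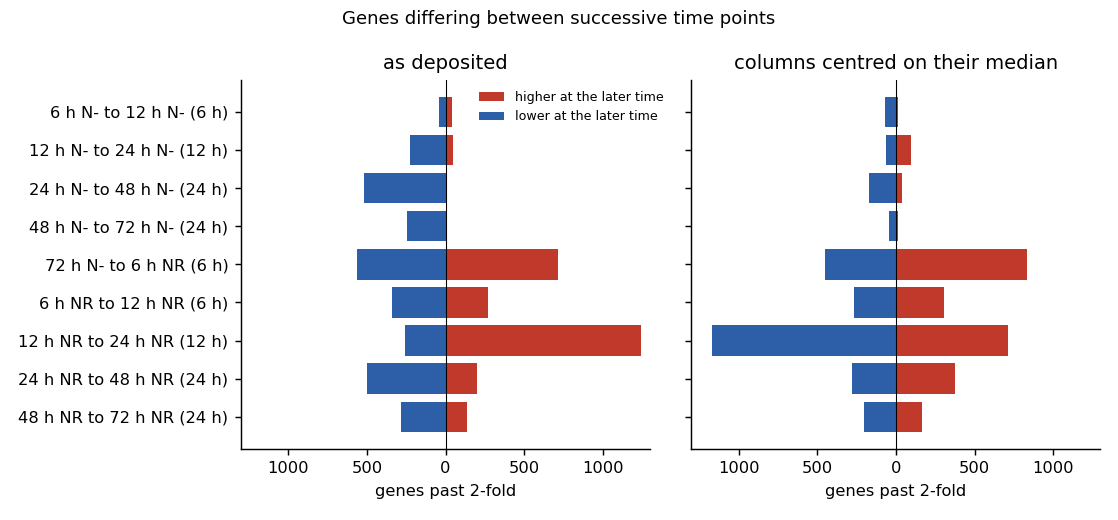
Number of genes more than 2-fold higher (red, to the right) or lower (blue, to the left) at the later of 2 successive time points, with the length of each interval in brackets, as deposited (left) and with columns centred on their median (right). The interval from 72 h N- to 6 h NR has 717 higher and 564 lower genes as deposited and 834 and 452 after centring.

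The order of genes by level, which no scaling of a column can change, gave a like picture. Across the 2489 genes, Spearman's rho between the 72 h N- and 6 h NR columns was 0.860, against 0.983 for 48 h with 72 h N- and 0.962 for 6 h with 12 h NR. It was lower, 0.772, for 12 h with 24 h NR. These are descriptions across genes, which share libraries and depth and were chosen by a test of deprivation against resupply. Of the 100 most abundant genes at 72 h N-, 56 were among the top 100 at 6 h NR, whereas 82 had been among the top 100 at 48 h N-. Of the top 50, 16 were shared with 6 h NR and 41 with 48 h N-. From 72 h N- to 6 h NR, 486 genes climbed and 499 dropped by more than 248 places, 39.6% of all genes. From 48 h to 72 h N- 37 climbed and 151 dropped that far, 7.55%.

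The most abundant transcripts moved most often upward. When 2 was raised to each value, the sum over all genes was 4389175 at 72 h N- and 12405715 at 6 h NR, 2.83-fold more. At the earlier times of deprivation it had been between 4749701 and 6155778. The sum and its rise depend on the scaling between columns, which is not given, and cover only the genes of the tables. Between the same 2 columns the median of all genes differed by -0.33, the other way. Cluster 1 supplied 61.2% of the sum at 72 h N- and 92.7% at 6 h NR, while cluster 2 went from 23.5% to 1.76%. The 10 genes that gained most made up 18.8% of the net rise, the 50 that gained most 46.2% and the 100 that gained most 68.4%. These sets were picked by their gain and already held 17.4%, 33.5% and 44.1% of the sum at 72 h N-. At 6 h NR they held 15.8%, 36.8% and 54.7%, so the share of the top 10 did not rise. The genes called higher had a median level of 10.34 at 72 h N- and 12.42 at 6 h NR. The genes called lower went from 8.92 to 6.74 in the median, and those within 2-fold were less abundant at the start, at 7.52.

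Levels were therefore also taken from columns outside the comparison, as the mean over 6, 12, 24 and 48 h N-. The genes were divided by this level into 4 groups of like size. In the most abundant group (10.83 to 17.65), 272 of 622 genes (43.7%) were higher at 6 h NR and 112 lower. In the least abundant group (1.78 to 7.89), 100 of 623 (16.1%) were higher and 139 (22.3%) lower. After centring these shares were 48.7% and 15.9% in the most abundant group and 20.2% and 15.9% in the least abundant, so the greater share of higher genes among abundant ones was there on both scales, and the surplus of lower genes in the least abundant group was not. With the level taken over all 8 columns outside the comparison, 53.1% of the most abundant and 11.6% of the least abundant group were higher. These columns include 12, 24, 48 and 72 h NR, so this level holds part of the later response. The part of that in the wider contrast was not tested. The groups differ in which clusters they hold. The most abundant one had 302 genes of cluster 1 and the least abundant 116, and the median difference of cluster 1 was 2.08 in the first and 1.73 in the second. Cluster 2 had 96 and 89 genes there, with medians of -2.26 and -2.04. Of the 564 lower genes, 105 lay under a level of 5 at 6 h NR and 16 at 72 h N-. The part of the authors' log2 transformation, which may shrink the differences of weakly expressed genes, was not tested.

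**Figure D3:**
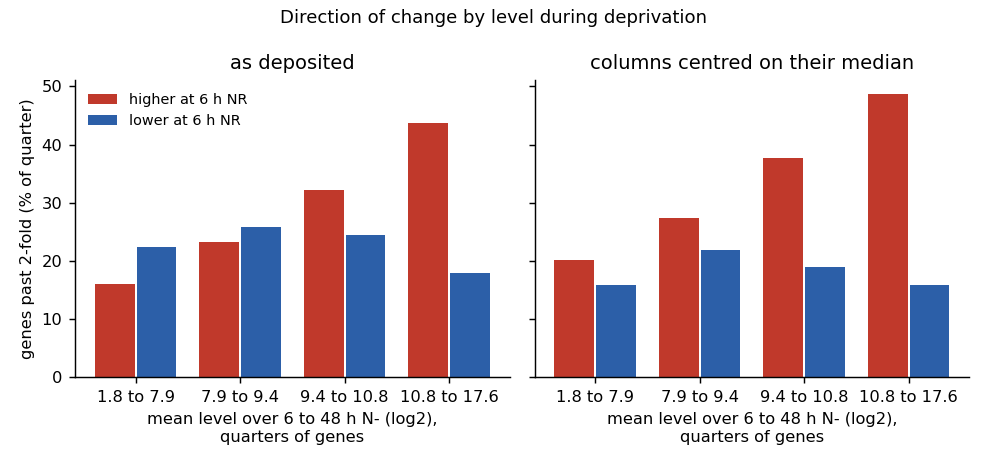
Share of genes more than 2-fold higher (red) or lower (blue) at 6 h NR than at 72 h N- in 4 groups by mean level over 6 to 48 h N-, as deposited (left) and with columns centred on their median (right). The share of higher genes goes from 16.1% in the least abundant group to 43.7% in the most abundant as deposited, and from 20.2% to 48.7% after centring.

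Gene models promoted by evidence were more often higher than predictions on masked sequence. Of 866 maker models, 334 (38.6%) were higher and 180 (20.8%) lower, against 383 (23.6%) and 384 (23.7%) of 1623 masked predictions. The maker models were also the more abundant ones, with a median level over 6 to 48 h N- of 10.33 against 8.86. Within the most abundant of the 4 groups, 50.1% of 349 maker models and 35.5% of 273 masked predictions were higher, and in the least abundant 17.7% of 79 and 15.8% of 544 were. The part of level in the difference was not tested beyond these groups. After centring, 43.4% of maker models and 28.2% of masked predictions were higher.

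Sharing a contig went with little more likeness in direction. The 2489 genes lie on 1215 contigs, of which 256 carry at least 2 genes past 2-fold. On 117 of these 256 contigs all such genes had the same direction. Of 1247 pairs of called genes on the same contig, 677 (54.3%) had the same direction, beside 50.7% of the pairs on different contigs. Contig 564, with 23 genes the most of any contig, had 6 higher and 6 lower, and so did contig 913 with its 18 genes. Overlapping gene models on a contig may count the same transcript more than once, and coordinates were not used here.

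How the difference at resupply relates to the deprivation before it was examined with the trend from 6 h to 48 h N-, which shares no column with 6 h NR minus 72 h N-. Over that trend 736 genes (29.6%) were lowered more than 2-fold, 102 (4.10%) were raised, and 1651 (66.3%) stayed within 2-fold. Of the 1651 genes within 2-fold, 622 (37.7%) were higher and 439 (26.6%) lower at 6 h NR, against 28.8% and 22.7% over all genes. Of the 1281 genes past 2-fold at 6 h NR, 1061 (82.8%) came from that class. This surplus was not there after centring, where 848 of 1286 (65.9%) came from a class of 67.3% of the genes. Then 28.8% of the class were higher and 21.9% lower, beside 33.5% and 18.2% of all genes.

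The lowered genes had mostly not come back by 6 h NR. Of the 736, 576 (78.3%) were within 2-fold of their 72 h N- value, with a median difference of -0.01 (quartiles -0.52 and 0.39). In this class 55 genes (7.47%) were higher at 6 h NR and 105 (14.3%) lower, both below the shares over all genes. Relative to 6 h N-, the median of these genes was -2.21 at the end of deprivation and -2.38 at 6 h NR. At 6 h NR 690 of them were still more than 2-fold below 6 h N-, beside 59.0% of all genes, 41 were within 2-fold and 5 were above. The class was chosen with the same 6 h N- column. After centring, the class shrank to 391 genes, of which 322 (82.4%) were within 2-fold, 53 (13.6%) were higher and 16 (4.09%) lower. Over all genes these shares were 48.3%, 33.5% and 18.2% on that scale. Which direction was the more common in the class thus turned with the scaling. Most remained more than 2-fold below 6 h N- on that scale too, 303 of 391, beside 29.3% of all genes.

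The few raised genes went in both directions. Of the 102, 40 (39.2%) were higher still at 6 h NR, 20 (19.6%) were lower and 42 (41.2%) were within 2-fold. Over all genes these shares were 28.8%, 22.7% and 48.5%, so lower genes were not more common in this class. The class held only genes of cluster 1 (80) and cluster 2 (22), and its higher genes were all of cluster 1 and its lower genes all of cluster 2. Over all genes, cluster 2 had 0 higher and cluster 1 had 2 lower. This division is therefore part of how the clusters were formed and no trait of raised genes. After centring, the class held 423 genes, of which 299 (70.7%) were higher and 70 (16.5%) lower, beside 33.5% and 18.2% of all genes. On the deposited scale 6 h NR exceeded 6 h N- by over 2-fold in 82 of the 102, beside 30.0% of all genes, while 13 were within 2-fold and 7 were below. The choice of the class used the same 6 h N- column.

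Across all 2489 genes the trend and the later difference were weakly related, with Pearson's r of 0.17 and Spearman's rho of 0.28, both given as a description across genes of shared libraries. Within each cluster the relation had the opposite sign, with r of -0.27 in cluster 1, -0.08 in cluster 2, -0.20 in cluster 3 and -0.53 in cluster 4. The sign over all genes and the sign within clusters therefore differ. Cluster 1 lay high on both axes and clusters 3 and 4 low on the trend. Centring leaves r as it is. The clusters were formed from profiles that include these columns, which limits what a profile within a cluster can look like.

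**Figure D4:**
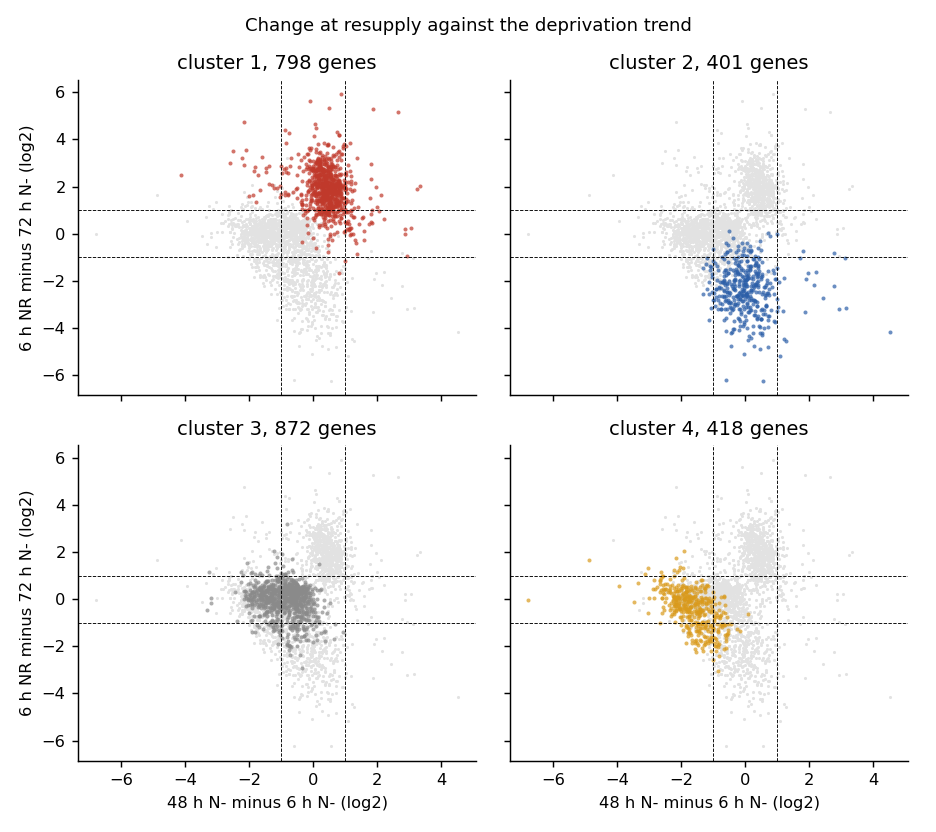
Difference at resupply (6 h NR minus 72 h N-, y axis, log2) against the deprivation trend (48 h N- minus 6 h N-, x axis, log2), 1 panel per cluster with that cluster in colour and all other genes in pale grey; dashed lines mark differences of 1. Cluster 4 slopes downward (r = -0.53), and clusters 1 and 2 lie above and below the middle over a like range of trends.

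Cluster 4 showed the relation most clearly. Its 105 genes with the steepest deprivation trend (median -2.30) had a median difference of 0.12 at resupply, with 10 genes higher and 0 lower. Its 105 genes with the shallowest trend (median -0.96) had a median difference of -1.09, with 0 higher and 59 lower. The genes between them, in 2 sets of 104 by trend, were at -0.19 and -0.54. All of these are deposited values, and the counts and signs depend on the scaling. After centring, the whole cluster had 25 higher and 64 lower genes in place of 13 and 108, and its median turned from -0.32 to 0.010. The sets by trend were not counted on that scale. At 72 h N- the steepest and shallowest sets stood at -3.03 and -1.02 relative to 6 h N- in the median. At 6 h NR they stood at -2.92 and -2.13. Within this cluster, the genes lowered least in deprivation were those that most often went lower in the first 6 h of resupply. The distance between the sets narrowed. The cluster was formed from profiles that include these columns, which limits how far its genes can differ at 6 h NR, so this is a description of the cluster only. In cluster 3 the 218 genes with the steepest trend and the 218 with the shallowest had medians of 0.12 and -0.13, with 13 and 1 genes higher and 7 and 35 lower.

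The called genes were also looked at from the other side. Of the 717 genes higher at 6 h NR, 565 (78.8%) had gone up between 6 h and 48 h N-, by any amount, beside 36.8% of all genes. Their median trend was 0.36 (quartiles 0.07 and 0.63), which is small next to the difference at resupply. The 564 lower genes had a median trend of -0.31, and 196 (34.8%) had gone up. After centring 83.2% of the higher and 65.3% of the lower genes had gone up, against 52.2% of all genes. The upward trend of the higher genes was found on both scales. The median trend of the lower genes turned to 0.33 after centring.

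Levels at 6 h NR were compared with the range of earlier deprivation. Without using the 72 h N- column, 654 genes (26.3%) were more than 2-fold above the highest of their 6, 12, 24 and 48 h N- values and 712 (28.6%) more than 2-fold below the lowest. Only 147 genes (5.91%) lay inside that range. By the same measure 72 h N- had 5 genes (0.201%) above and 241 (9.68%) below. All 654 genes above the range were of cluster 1, and the 712 below were 342 of cluster 2, 218 of cluster 3 and 152 of cluster 4. In cluster 3, 214 genes had been below the range at 72 h N- already. After centring 776 genes (31.2%) were above and 271 (10.9%) below, with 573 inside. The count above was close on both scales, and the count below depended on the scaling.

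The direction was seen again in columns that the comparison did not use. It is no independent repeat, because the genes were chosen by a test of deprivation against resupply. Also, 48 h N- and 12 h NR are next in time to the columns compared. Set against 48 h N-, 12 h NR was more than 2-fold higher for 620 of the 717 genes (86.5%) and lower for 7, beside 27.5% higher and 43.0% lower over all genes. Of the 564 lower genes 446 (79.1%) were lower at 12 h NR and 0 were higher. The medians were 1.71 (quartiles 1.27 and 2.43) and -1.82 (quartiles -2.44 and -1.16). After centring, 749 of 834 higher genes were higher at 12 h NR and 7 lower, and 269 of 452 lower genes were lower and 7 higher, beside 37.0% higher and 22.7% lower over all genes. Larger differences at 6 h NR went with larger ones at 12 h. The 85 genes more than 8-fold higher had a median of 3.03 at 12 h NR above 48 h N-, the 279 genes between 4-fold and 8-fold had 2.12, and the 353 genes between 2-fold and 4-fold had 1.29. On the lower side the medians were -3.08, -2.04 and -1.47.

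In the values as deposited, the median difference was near 0 by 72 h NR. Relative to 48 h N-, the 717 higher genes had medians of 1.71, 1.27, 0.73 and -0.10 at the 4 later times of resupply in order. The 564 lower genes were at -1.82, -0.59, -0.13 and 0.01. At 72 h NR 100 of the 717 (13.9%) were still more than 2-fold above 48 h N-, beside 38.8% of all genes, and 97 of the 564 (17.2%) more than 2-fold below it, beside 6.83%. The time course and its end depend on the scaling. After centring the higher genes were at 2.31, 0.25, 0.00 and -0.67 and the lower genes at -1.19, -1.93, -1.13 and -0.72. As deposited, the 104 genes more than 8-fold lower at 6 h NR had a median of -0.85 at 72 h NR relative to 48 h N-. The 292 genes between 2-fold and 4-fold lower were at 0.56 on that scale. The medians of these sets were not taken after centring, which shifts both by the same amount.

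**Figure D5:**
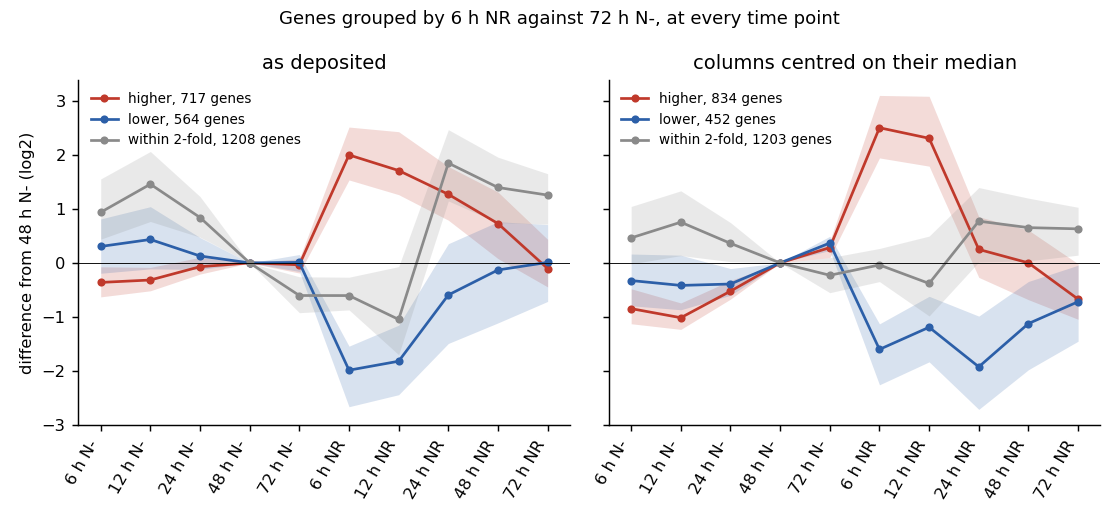
Median difference from 48 h N- (log2, y axis) at each time point for genes higher (red), lower (blue) or within 2-fold (grey) at 6 h NR against 72 h N-, with bands from the lower to the upper quartile over genes, as deposited (left) and centred (right). The 72 h N- and 6 h NR points defined the groups; at 12 h NR, which did not, the higher and lower genes are at 1.71 and -1.82 as deposited.

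The 1208 genes within 2-fold at 6 h NR took another course. Their median trend in deprivation was -0.94, and 576 of them had been lowered more than 2-fold. After centring these were -0.46 and 322 of 1203. Relative to 48 h N-, their median was -0.60 at 72 h N-, -0.61 at 6 h NR, -1.05 at 12 h NR and 1.85 at 24 h NR. Relative to 48 h N-, 932 of them (77.2%) were more than 2-fold higher at 24 h NR, beside 58.1% of all genes. After centring 506 of 1203 were higher at 24 h NR, beside 27.4%, and the median was 0.77.

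Single genes show how far the change could depart from the trend. With the largest increase of all, augustus_masked-nanno_497-abinit-gene-0.17, a cluster 1 gene, lay between 8.32 and 9.43 at the 5 times of deprivation and reached 15.10 at 6 h NR. It went from place 1070 in the order of levels at 72 h N- to place 101, and was 5.37 above 48 h N- at 12 h NR. The gene augustus_masked-nanno_2434-abinit-gene-0.0, also of cluster 1, went from place 1718 to place 329 with an increase of 5.62. Both had been within 2-fold over the deprivation trend.

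The largest decreases were of cluster 2 genes that had also been within 2-fold over the deprivation trend. The gene snap_masked-nanno_186-abinit-gene-0.7 was between 9.78 and 11.02 at the 5 times of deprivation and differed by -6.25 between 72 h N- and 6 h NR. It went from place 464 in the order of levels to place 2216. After 48 h of resupply it was still at 7.00, and after 72 h at 9.45. The gene augustus_masked-nanno_494-abinit-gene-0.1 went from place 341 to place 2110, and was at 5.65 at 48 h NR and 7.76 at 72 h NR, against 11.50 at 72 h N-.

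Among the genes lowered in deprivation, snap_masked-nanno_4937-abinit-gene-0.6 had the largest increase at resupply. It stood at 10.50, 9.33, 8.61, 8.35 and 7.91 from 6 h to 72 h N- and at 12.67, 13.10, 11.80, 11.71 and 10.15 from 6 h to 72 h NR. The increase in the first 6 h was 27.0-fold and took it 2.17 past its 6 h N- level. The maker model maker-nanno_568-augustus-gene-0.40 had a like profile, with 9.81 at the first and 7.29 at the last time of deprivation, then 10.84 at 6 h NR and 12.21 at 12 h NR. Both are of cluster 1 and were near their 6 h N- level again at 72 h NR, at 10.15 and 10.07.

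Others of the lowered genes went further down. The cluster 2 gene augustus_masked-nanno_630-abinit-gene-0.1 was at 13.09 early in deprivation, at 12.13 at its end and at 8.47 after 6 h of resupply, 12.6-fold lower than before. It came back in steps, with 9.67, 10.93, 12.52 and 12.11 at the later NR times. The gene snap_masked-nanno_985-abinit-gene-0.52, also of cluster 2 and weakly expressed, was at 6.54 before resupply and at 3.37 after 6 h, and stayed between 3.63 and 4.00 until 48 h NR. At 72 h NR it was at 6.56.

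Among the raised genes, 2 of cluster 1 showed a pulse of resupply. The gene augustus_masked-nanno_3156-abinit-gene-0.0 stood at 3.30, 3.44, 4.83, 5.18 and 4.21 from 6 h to 72 h N-, and at 9.50, 9.00, 4.51, 5.27 and 4.36 from 6 h to 72 h NR. Its increase in the first 6 h was 39.2-fold, and it was back near the deprivation values at 24 h NR. The gene augustus_masked-nanno_646-abinit-gene-0.0 had a like pulse, with 9.97, 10.45 and 5.32 at 6, 12 and 24 h NR. Before resupply it was at 6.25, 6.28 and 4.79 at 24, 48 and 72 h N-, so it had already come down from its raised level. Both were weakly expressed in deprivation, where the folds rest on low values.

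The raised genes named for turning down were of cluster 2, in which 0 of 401 genes were higher at 6 h NR. The gene augustus_masked-nanno_1063-abinit-gene-0.3 went up in deprivation from 9.55 to 11.27 and was at 6.10 after 6 h of resupply, 36.2-fold lower. It stayed between 5.73 and 6.89 until 48 h NR and was at 10.30 at 72 h NR. The maker model maker-nanno_620-augustus-gene-0.48 was among the most abundant transcripts in deprivation, with 14.31 and place 22 at 72 h N-, and went to 9.75 and place 902 at 6 h NR. It was then at 9.92, 11.34, 10.93 and 11.19 and had not regained its 6 h N- value of 13.08 by 72 h NR.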

How the data were processed

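Total RNA of the alga was sequenced as single-end reads. Per the labels' protocols, Trimmomatic 0.32 trimmed the reads, STAR 2.3.0e placed those that map uniquely on the genome of the strain, and HTSeq 0.6.1 counted them per gene; the authors called genes with DESeq2 and split them into 4 clusters by k-means. Unique mapping undercounts near-identical genes. The deposited tables hold 1 log2 value per gene and group as the authors made it. The log2 scale was inferred from the values, which run from 1.46 to 19.46, and how libraries were scaled, transformed and pooled is not given in the sources used here. Depth per library is unknown. The authors' row numbers, the other deposited number, were not used.

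The labels give 11 groups of 4 libraries, and 10 have a column. The protocol speaks of 2 biological replicates per time. With 1 pooled value per group no test was possible, so differences were computed in pandas 2.3.3 and numpy 2.4.6 (Python 3.11.15, with scipy 1.17.1 for correlations) and counted past 1 (log2). Alternatives were centring on the column median or on the mean of the cluster medians, genes with a mean of at least 7, low values damped as log2(2 to the value + 32), other baselines and responses, thresholds and trends. Genes named are, at most, the 2 with the largest increase and the 2 with the largest decrease over all genes and in each of the 3 trend classes. Ranks within columns and the level over 6 to 48 h N- were added after the values were seen. The members, rules and lists were chosen with earlier results of these data known. The reference table of 160 genes held 0 of the 2489 identifiers, so 6 functional gene lists (nitrogen assimilation, ribosome, photosystems, oil synthesis, lipid breakdown, cell cycle) gave no result.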

Additional observations from a re-analysis of the deposited data

How the results depend on the processing

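No paired analysis was possible because each group has 1 pooled value, and for the same reason no library could be left out. Values with no replicate error were taken as close when a count stayed within 1.5 times, a log2 median within 0.25 and r within 0.1. Of 115 alternative values 65 were close and 50 were not. The sign turned in 11, of which 4 were of the median over all genes, 4 of the median of cluster 3 and 3 of that of cluster 4. Taken singly, the counts of 717 higher and 564 lower genes stayed close under both centrings, the level filter, damping and a threshold of 1.5. They also did so under the other baselines and responses, and became 364 and 272 at a threshold of 2. Their balance did not always hold. With 48 h N- as baseline 696 genes were higher and 751 lower, so lower genes were then the more common.

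The median difference over all genes, 0.18, was 0.51 and 0.45 with columns centred on their median and on the mean of the cluster medians, -0.52 and -0.17 with 48 h N- and with the mean of 48 h and 72 h N- as baseline, and -0.25 and -0.068 with 12 h NR and with the mean of 6 h and 12 h NR as response. It lies near 0 and its sign carries no result. The median of cluster 4, -0.32, turned to 0.010 after centring on the median, 0.41 at 12 h NR and 0.023 for the mean of 6 h and 12 h NR. The median of cluster 3, 0.07, became -0.69 and -0.29 with the other baselines and -0.78 and -0.32 with the other responses. Clusters 1 and 2 kept their sign under all of these.

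The 712 genes below the earlier deprivation range became 271 and 319 under the 2 centrings and 1557 with no margin. For lowered genes, the 55 higher became 33 with the trend to 24 h N- and 86 with a trend threshold of 0.5. The 105 lower became 16 and 13 under the 2 centrings, 55 with damping, 14 with the trend to 24 h N- and 236 with a trend threshold of 0.5. For raised genes, the 40 higher became 299 and 336 under the centrings, 26 with damping, 16 with the trend from the mean of 6 h and 12 h N- and 267 with a trend threshold of 0.5. The 20 lower became 70 and 78 under the centrings, 12 with a mean of at least 7 and 75 with a trend threshold of 0.5. Pearson's r stayed close throughout. At 12 h NR against 48 h N-, the medians of 1.71 and -1.82 became 2.31 and -1.19, and 2.13 and -1.37, under the centrings. Changed class sizes are part of the trend settings and the centrings; for the rest the cause was not tested.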

Other observations

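A group of abundant genes stood out in the plot of levels. Its bounds were drawn after the values were seen, so it is a description with no test. Between 12 and 14 at 72 h N- and between 15 and 17 at 6 h NR lay 88 genes, all of cluster 1, on 83 contigs. These bounds admit only genes that rose, and 673 of the 717 higher genes were of cluster 1 in any case. Of the 88, 73 (83.0%) were maker models, beside 57.7% of the other 142 genes in the same window at 72 h N- and 34.8% of all genes. Those 142 include genes that were not higher. The share among the 61 that were more than 2-fold higher but below the bounds at 6 h NR was not taken.

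At times farther from the bounds, their median level was 12.72 at 6 h N-, 14.50 at 24 h NR, 14.18 at 48 h NR and 12.97 at 72 h NR. The files pair no name with them.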
